A study of Mus musculus with 8 samples.

Results

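The data describe 10 genes of mitochondrial beta-oxidation and of the electron transfer flavoprotein in mouse fat: Cpt2, Acadvl, Acadl, Acadm, Hadha, Hadhb, Hadh, Etfa, Etfb and Etfdh. The members were taken as every probe set that the platform annotation assigns to one of these gene symbols. This gave 17 probe sets for the 10 genes, out of 34945 named probe sets and 18193 genes on the array. Affymetrix 3′ arrays, 1 per mouse, profiled epididymal white adipose tissue, a fat depot of the male abdomen. The 4 LPA4-KO mice carried a deficient allele of Lpar4 on their X chromosome (Lpar4 -/Y), and the 4 WT mice were wild type littermates. Lpar4 encodes a receptor for lysophosphatidic acid. All 8 were males of the C57BL/6 background, 12 weeks old and on standard chow, with no treatment given in the labels. The comparison asks whether these genes differ between LPA4-KO and WT fat. The labels give neither the deleted part of Lpar4 nor a restriction of the deletion to one cell type.

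Long-chain fatty acids enter the mitochondrial matrix as carnitine esters, and CPT2 turns them back into acyl-CoA there. Acyl-CoA dehydrogenases then open each round of beta-oxidation, and the mitochondrial trifunctional protein and HADH carry it on until acetyl-CoA is released. The dehydrogenases hand their electrons to the electron transfer flavoprotein (ETF), a dimer of ETFA and ETFB. ETFDH, an iron-sulfur flavoprotein of the inner membrane, passes them on to ubiquinone in the respiratory chain. White adipocytes mainly store and release fatty acids and also oxidise some of them.

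The 250 bases before the annotated start of 5 members are shown, because the ETF genes are compared with each other further on and because both trifunctional protein genes share upstream bases. They are RefSeq sequences of build GRCm38.p6, read 5′ to 3′ on the strand of the gene, and all 10 members had an entry. The sites are chr3:79628768-79629017 (minus strand) for Etfdh, chr7:43443822-43444071 (plus strand) for Etfb and chr9:55512244-55512493 (minus strand) for Etfa. Those of the trifunctional protein are chr5:30154981-30155230 (minus strand) for Hadha and chr5:30155003-30155252 (plus strand) for Hadhb. Capitals mark exact matches, on either strand, to the motifs named in the next paragraph.
Etfdh: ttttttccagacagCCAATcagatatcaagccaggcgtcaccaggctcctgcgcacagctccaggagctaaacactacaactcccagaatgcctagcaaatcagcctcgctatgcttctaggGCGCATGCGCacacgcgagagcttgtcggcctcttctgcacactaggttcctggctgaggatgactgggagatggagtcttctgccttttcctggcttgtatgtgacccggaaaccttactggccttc
Etfb: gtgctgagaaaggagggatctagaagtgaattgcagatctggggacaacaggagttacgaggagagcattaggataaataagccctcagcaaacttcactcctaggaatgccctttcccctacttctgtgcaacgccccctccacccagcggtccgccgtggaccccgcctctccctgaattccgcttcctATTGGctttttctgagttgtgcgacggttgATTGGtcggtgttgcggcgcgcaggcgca
Etfa: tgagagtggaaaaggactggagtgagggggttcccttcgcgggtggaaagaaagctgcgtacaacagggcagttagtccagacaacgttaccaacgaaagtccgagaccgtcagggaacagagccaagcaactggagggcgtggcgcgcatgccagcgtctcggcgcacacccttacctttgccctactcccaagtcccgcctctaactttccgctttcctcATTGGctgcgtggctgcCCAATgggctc
Hadha: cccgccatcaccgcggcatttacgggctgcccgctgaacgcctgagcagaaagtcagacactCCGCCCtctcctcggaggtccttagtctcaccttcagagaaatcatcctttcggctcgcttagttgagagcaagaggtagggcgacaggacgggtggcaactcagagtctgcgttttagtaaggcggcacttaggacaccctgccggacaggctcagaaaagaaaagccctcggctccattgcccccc
Hadhb: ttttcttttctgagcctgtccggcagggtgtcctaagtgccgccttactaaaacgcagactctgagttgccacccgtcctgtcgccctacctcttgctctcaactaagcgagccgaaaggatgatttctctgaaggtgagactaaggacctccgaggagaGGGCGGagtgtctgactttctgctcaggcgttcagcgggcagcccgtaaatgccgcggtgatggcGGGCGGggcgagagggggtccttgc

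Hadha and Hadhb are divergent neighbours. Their annotated starts lay 273 bases apart on chromosome 5, so their upstream windows shared 228 bases, read from opposite strands. The Etfdh window held GCGCATGCGC, the palindrome bound by the factor NRF1, beginning 128 bases before the start. It was the 1 member window of 10 with this motif, which 0.782% of 32851 RefSeq promoter windows of the same length held. CCAAT, the box bound by NF-Y, occurred in the windows of Etfa, Etfb, Etfdh and Hadh, 4 of 10 members, against 33.8% of all windows. GGGCGG, the GC box of Sp1-type factors, occurred in 5 of 10, against 32.7%. The Hadha box, 188 bases before its start, is the same site as the Hadhb box 90 bases before the Hadhb start. G and C made up 49.6% to 68.0% of the member windows, against a median of 52.4% over all windows. The nuclear receptor half-site AGGTCA occurred in 2 of 10 (Acadvl and Acadm), against 14.0% of all windows. It also makes up the longer motifs AGGTCANAGGTCA, the direct repeat bound by PPAR, and TCAAGGTCA, bound by estrogen-related receptors. Neither was found in a member window, and they stood in 0.0335% and 0.387% of all windows. These matches are letters in a window and not tested sites.

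Signals are log2 values as deposited, group means carry their SD (n = 4), and differences (LPA4-KO minus WT) carry their SE. Differences were tested with limma over all named probe sets, and a probe set was called at a Benjamini-Hochberg adjusted p under 0.05. Of all named probe sets 6682 (19.1%) spanned over 0.1 log2 across the 8 arrays and are called varying here. The rest were nearly constant. Of the 17 member probe sets 11 varied, the narrowest of them, 1437172_x_at of Hadhb, over 0.206 log2. The Etfa probe set fell just short with a span of 0.0931 log2. The other 5, additional probe sets of Cpt2, Acadl, Hadhb, Hadh and Etfdh, spanned at most 0.00069 log2. A flat value in this table is no measurement that RNA was equal. The number of arrays limits the precision, and depth cannot be stated as a count. Array medians over named probe sets ran from 6.6485 to 6.6540 in LPA4-KO and from 6.6545 to 6.6612 in WT mice, a small shift without overlap. The label check through Lpar4 rested on 1 of its 3 probe sets, 1452424_at, with signals of 5.80 ± 0.05 in LPA4-KO fat and 6.52 ± 0.03 in WT fat. The other 2 were not lower in LPA4-KO mice, with differences of 0.68 ± 0.24 and 0.48 ± 0.25.

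Etfdh and Etfb, at the electron-transfer end of the pathway, rose in LPA4-KO fat, by 1.28-fold and 1.17-fold. Cpt2, Acadvl and Acadl stood 1.18 to 1.27-fold higher without passing the test over all probe sets, and each had no overlap between the groups. Differences of Acadm, Hadha and Hadhb were positive with overlapping groups. Hadh and Etfa differed by at most 0.05 log2 at each probe set. In all, 2 of 17 member probe sets were called higher (11.8%) and 0 lower, where 0.612% of all named probe sets were called higher and 0.321% lower (0.933% in either direction). Within the varying probe sets, the same fit called 2.53% higher. Counting each gene once, through the probe set of highest average signal, 2 of 10 genes were called higher, against 0.863% of 18193 genes. In bulk tissue, more cells of a type and more RNA per cell cannot be told apart.

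**Figure D1:**
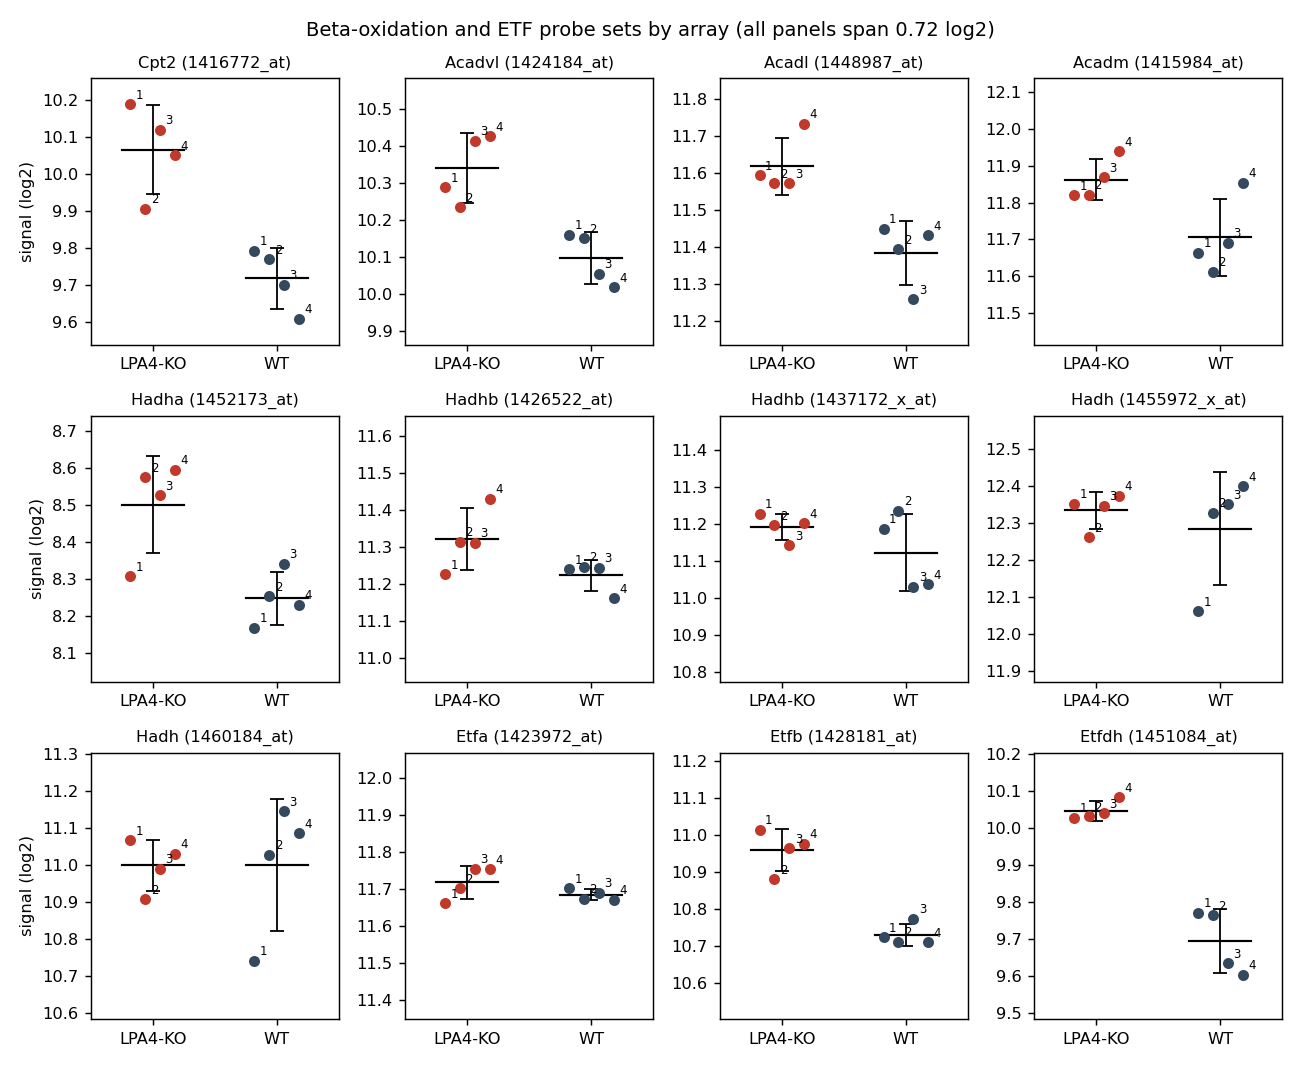
Signal (log2) of the 12 member probe sets that spanned over 0.05 log2, with LPA4-KO left of WT in each panel. Points are single arrays numbered by replicate, lines are means and bars are SD (n = 4), and every panel spans the same height of 0.72 log2. Etfdh, Etfb, Cpt2, Acadvl and Acadl (1448987_at) show no overlap between the groups.

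Etfdh, the gene of the ubiquinone reductase that empties ETF, had the largest difference and the smallest p of the 17. At 1451084_at it stood at 10.03, 10.03, 10.04 and 10.08 in LPA4-KO replicates 1 to 4, against 9.77, 9.77, 9.64 and 9.60 in WT replicates 1 to 4. The LPA4-KO arrays lay within a narrow band above all WT arrays, which were more spread, and the gap between the nearest arrays was 0.256 log2. The difference was 0.35 ± 0.04 (95% interval 0.25 to 0.46, limma adjusted p = 0.0346), or 1.28-fold (1.19 to 1.37). The exact two-sided permutation p over arrays was 0.0286, the smallest that 4 against 4 can give. With 1 array left out the difference lay between 0.32 and 0.38. The call was kept without WT replicate 1 (limma adjusted p = 0.0498) and ended without each of the other 7 arrays (limma adjusted p up to 0.0993).

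Etfb, which encodes the beta subunit of ETF and was read by probe set 1428181_at, stood at 11.01, 10.88, 10.96 and 10.98 in LPA4-KO mice, against 10.72, 10.71, 10.77 and 10.71 in WT mice. The WT arrays were close together, LPA4-KO replicate 2 was the lowest of its group, and the groups were 0.107 log2 apart. The difference was 0.23 ± 0.03 (95% interval 0.16 to 0.30, limma adjusted p = 0.0378), or 1.17-fold, with an exact permutation p of 0.0286. With 1 array left out it lay between 0.21 and 0.26, and the call ended in each of the 8 cases (limma adjusted p from 0.0520 to 0.109). With all 8 arrays it also ended under robust eBayes (limma adjusted p = 0.0519).

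Etfa, the partner of Etfb in the dimer, read by probe set 1423972_at, stood at 11.66, 11.70, 11.76 and 11.75 in LPA4-KO mice, against 11.70, 11.68, 11.69 and 11.67 in WT mice. Replicates 3 and 4 of LPA4-KO were above all WT arrays, replicate 1 was below them, and the groups overlapped. The difference was 0.034 ± 0.023 with a 95% interval of -0.021 to 0.089 (limma adjusted p = 0.516). The upper end of that interval lies below the lower ends of the intervals of Etfb and Etfdh. This probe set spanned 0.0931 log2, under the limit for varying ones, so its small difference is no measurement that Etfa RNA was equal.

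**Figure D2:**
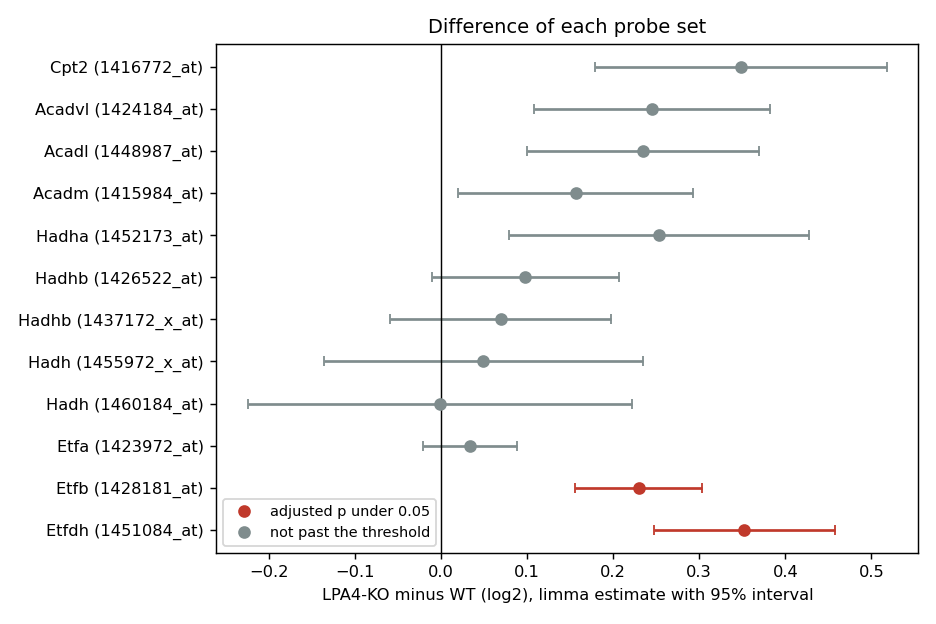
Difference between LPA4-KO and WT (log2, limma estimate) with its 95% interval for the same 12 probe sets. Red marks an adjusted p under 0.05 over all named probe sets, which Etfb (0.23) and Etfdh (0.35) reached.

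Cpt2, whose product releases acyl-CoA from its carnitine ester inside the mitochondrion, had a difference as large as that of Etfdh with more spread. At 1416772_at it stood at 10.19, 9.91, 10.12 and 10.05 in LPA4-KO mice, against 9.79, 9.77, 9.70 and 9.61 in WT mice. All LPA4-KO arrays were above all WT arrays, with replicate 2 closest to them. The difference was 0.35 ± 0.07 (95% interval 0.18 to 0.52) and was not called (limma adjusted p = 0.0872, exact permutation p = 0.0286).

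The acyl-CoA dehydrogenases carry out the same first step on chains of different length. Acadvl, the very long-chain enzyme of the inner membrane, read by probe set 1424184_at, stood at 10.29, 10.23, 10.41 and 10.43 in LPA4-KO mice, against 10.16, 10.15, 10.05 and 10.02 in WT mice. The groups did not overlap, and replicates 3 and 4 were the highest in LPA4-KO and the lowest in WT mice. The difference of 0.25 ± 0.06 was not called (limma adjusted p = 0.110, exact permutation p = 0.0286).

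Acadl, the long-chain enzyme, stood at 11.59, 11.57, 11.57 and 11.73 in LPA4-KO mice, against 11.45, 11.39, 11.26 and 11.43 in WT mice at 1448987_at. LPA4-KO replicate 4 was above the rest of its group, WT replicate 3 was below the rest of its own, and the groups did not overlap. The difference was 0.23 ± 0.06 (limma adjusted p = 0.117, exact permutation p = 0.0286).

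Acadm, the medium-chain enzyme, read by probe set 1415984_at, stood at 11.82, 11.82, 11.87 and 11.94 in LPA4-KO mice, against 11.66, 11.61, 11.69 and 11.85 in WT mice. WT replicate 4 lay among the LPA4-KO arrays and the other 3 WT arrays below them. The difference of 0.16 ± 0.06 had a 95% interval of 0.02 to 0.29 and was not called (limma adjusted p = 0.244, exact permutation p = 0.0857).

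The trifunctional protein joins the hydratase and long-chain hydroxyacyl-CoA dehydrogenase activities of HADHA with the thiolase of HADHB. Hadha, read by probe set 1452173_at, stood at 8.31, 8.58, 8.53 and 8.60 in LPA4-KO mice, against 8.17, 8.25, 8.34 and 8.23 in WT mice. LPA4-KO replicate 1 lay below WT replicate 3, and the other 3 LPA4-KO arrays were above all WT arrays. The difference was 0.25 ± 0.07 (95% interval 0.08 to 0.43, limma adjusted p = 0.165, exact permutation p = 0.0571).

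Hadhb was read by 2 varying probe sets. At 1426522_at the values were 11.23, 11.31, 11.31 and 11.43 in LPA4-KO mice, against 11.24, 11.25, 11.24 and 11.16 in WT mice. At 1437172_x_at they were 11.23, 11.20, 11.14 and 11.20 in LPA4-KO mice, against 11.19, 11.24, 11.03 and 11.04 in WT mice. The groups overlapped at both, and LPA4-KO replicate 1 was the lowest of its group at the first and the highest at the second. The differences were 0.10 ± 0.05 and 0.07 ± 0.05, and neither was called (limma adjusted p = 0.342 and 0.573).

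Hadh encodes the soluble hydroxyacyl-CoA dehydrogenase for shorter chains. At 1455972_x_at it stood at 12.35, 12.26, 12.35 and 12.37 in LPA4-KO mice, against 12.06, 12.33, 12.35 and 12.40 in WT mice. At 1460184_at the values were 11.07, 10.91, 10.99 and 11.03 in LPA4-KO mice, against 10.74, 11.03, 11.15 and 11.09 in WT mice. WT replicate 1 was the lowest of the 8 arrays at both, and the other 3 WT arrays lay among or above the LPA4-KO arrays. The differences were 0.05 ± 0.08 (95% interval -0.14 to 0.23) and -0.0012 ± 0.093 (95% interval -0.22 to 0.22), with limma adjusted p of 0.814 and 0.998. Without WT replicate 1 the first was -0.025 and the second -0.088, and the second was 0.0060 after median centring of the arrays. The upper ends of both intervals lie close to the difference measured for Etfb.

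Across the members, each of the 4 LPA4-KO arrays lay above each WT array on average. The mean deviation from the WT mean over the 9 varying genes was 0.193, 0.168, 0.231 and 0.281 log2 in LPA4-KO replicates 1 to 4, against -0.0058, 0.017, -0.0036 and -0.0071 in WT replicates 1 to 4. LPA4-KO replicate 4 was the highest of its group in 7 of the 9 genes. WT replicate 4 was the lowest of its group in 5 of 9. Of the 11 varying probe sets 10 had a positive difference, with a median of 0.23 log2, where 43.2% of all varying probe sets were positive. The groups did not overlap in 5 of the 11 (45.5%), with LPA4-KO higher each time, where this held for 12.9% of varying probe sets. Over all 17 it was 5, against 6.75% of all named probe sets. Counted by gene, 9 of 9 varying members were positive, against 46.6% of varying genes. Of these, Hadh (0.05 ± 0.08) turned to -0.025 without WT replicate 1. When the varying probe sets were fitted alone, 5 of 11 were called higher (Etfdh, Cpt2, Etfb, Acadl and Acadvl, limma adjusted p from 0.0117 to 0.0385), against 8.35% of 6682. The span that selects varying features includes the difference between the groups, so adjusted p in each such fit can be too small. Members read RNA of the same mice, so they are not separate replicates of the genotype. Both the members and the 0.1 log2 limit were chosen with earlier results of these data known, so these shares describe the set and test nothing.

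Members of a complex or family were compared directly, as the log2 difference between both probe sets within each array. The 7 pairs were chosen after the values were seen, and the smallest p after Benjamini-Hochberg adjustment over them, of the exact permutation tests, was 0.1. Etfb minus Etfa was -0.65, -0.82, -0.79 and -0.78 in LPA4-KO mice, against -0.98, -0.96, -0.92 and -0.96 in WT mice. All LPA4-KO arrays were above all WT arrays, a difference of 0.20 ± 0.04 (unadjusted exact permutation p = 0.0286). Etfdh minus Etfa differed by 0.32 ± 0.04, again with no overlap (exact permutation p = 0.0286). Etfdh minus Etfb differed by 0.12 ± 0.06 with overlapping groups (exact permutation p = 0.114). A ratio within an array does not show that either gene stayed constant, and the Etfa probe set was not among the varying ones.

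Hadha minus Hadhb (1426522_at), from genes that share their upstream bases, was -2.92, -2.74, -2.78 and -2.83 in LPA4-KO mice, against -3.07, -2.99, -2.90 and -2.93 in WT mice. LPA4-KO replicate 1 lay below WT replicate 3, and the difference of 0.16 ± 0.05 had an exact permutation p of 0.0571. Among the dehydrogenases, Acadvl minus Acadm differed by 0.09 ± 0.09 and Acadl minus Acadm by 0.08 ± 0.06, with groups that overlapped (exact permutation p = 0.400 and 0.343). Acadvl minus Acadl differed by 0.01 ± 0.06 (exact permutation p = 0.914), and the sign turned to -0.029 without LPA4-KO replicate 3 and to -0.031 when WT replicate 4 was left out. Unequal differences among the 3 dehydrogenases were thus not detectable with these arrays.

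**Figure D3:**
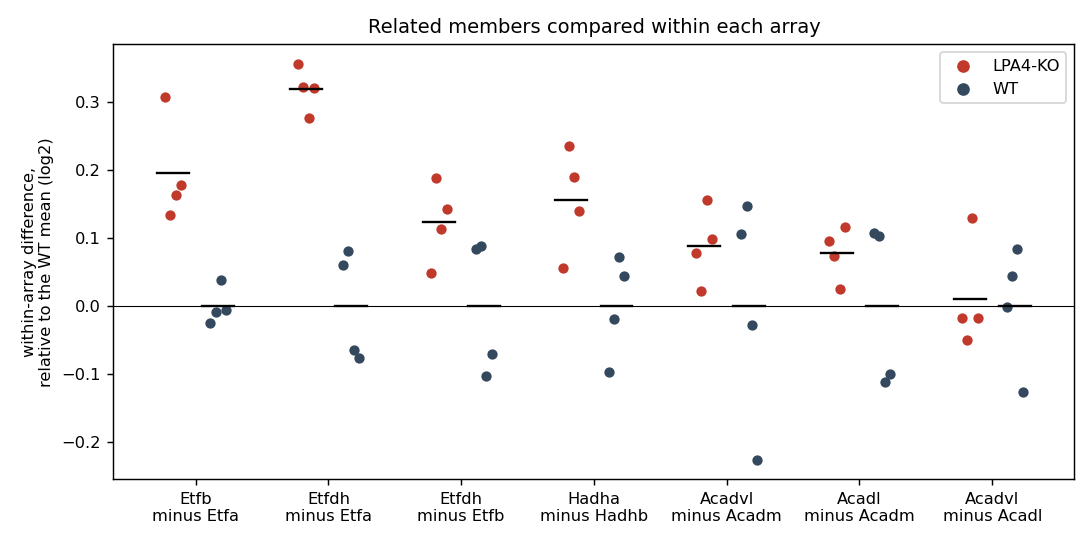
Log2 difference between the probe sets of 2 related members within each array, drawn relative to the WT mean of that pair, with LPA4-KO left of WT. Points are arrays and lines are means (n = 4). Etfb minus Etfa (0.20) and Etfdh minus Etfa (0.32) are the pairs without overlap between the groups.

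Neighbouring steps of fatty acid oxidation were read in the same fit of 18193 genes. In the list of activation and the carnitine shuttle, 1 of 9 measured genes rose and 0 fell. Over all genes 0.863% were called higher and 0.451% lower. Slc25a20, the carrier that exchanges acylcarnitine for carnitine across the inner membrane, averaged 10.27 ± 0.07 in LPA4-KO fat and 9.96 ± 0.02 in WT fat (0.31 ± 0.03, limma adjusted p = 0.0292). Cpt1a, the liver-type enzyme of the outer membrane that makes acylcarnitine, averaged 8.48 ± 0.16 in LPA4-KO fat and 8.78 ± 0.12 in WT fat (-0.31 ± 0.10, limma adjusted p = 0.186), opposite in sign to Cpt2. The carnitine importer gene Slc22a5 differed by 0.18 ± 0.11. The list had 6 varying genes, of which 3 were positive and 3 negative, and their median was 0.05 log2.

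A list of other mitochondrial beta-oxidation genes also took in relatives of these enzymes by family. Of its 15 genes 1 rose and 0 fell, against 0.863% of all genes called higher. Of its 11 varying genes 9 were positive (median 0.17 log2), against 46.6% of all varying genes. Acad9, an acyl-CoA dehydrogenase family member that also serves assembly of complex I, averaged 8.29 ± 0.02 in LPA4-KO fat and 7.89 ± 0.12 in WT fat (0.40 ± 0.06, limma adjusted p = 0.0363). Echdc1 had a larger difference with more spread (0.54 ± 0.11, limma adjusted p = 0.0771). It belongs to the enoyl-CoA hydratase family, but its product acts as a decarboxylase and not as an enzyme of beta-oxidation. Acad11 and Hsd17b10, with the highest signals of the list, differed by -0.06 ± 0.09 and 0.26 ± 0.14. With varying genes fitted alone 3 were called higher (Acad9, Echdc1 and Eci1), against 9.78% of 4029 varying genes.

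Other dehydrogenases that deliver electrons to ETF act on short or branched acyl-CoA, amino acid derivatives and hydroxy acids. None of 8 measured genes was called, where 0.863% of all genes were called higher and 0.451% lower, and 6 of the 8 were nearly constant. The short-chain enzyme gene Acads differed by 0.23 ± 0.08 (limma adjusted p = 0.238) and the short branched-chain gene Acadsb by 0.19 ± 0.07 (limma adjusted p = 0.234). Ivd, isovaleryl-CoA dehydrogenase, was nearly constant.

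Regulators of fatty acid oxidation gave 0 calls among 12 genes, where 0.863% of all genes were called higher and 0.451% lower. Ppara, the nuclear receptor that induces many oxidation genes, differed by 0.42 ± 0.16 (limma adjusted p = 0.246), and Acacb, the carboxylase whose product malonyl-CoA inhibits CPT1, by 0.34 ± 0.13 (limma adjusted p = 0.243). Pparg, the adipocyte nuclear receptor, differed by 0.07 ± 0.10. All 6 varying genes of this list were positive, against 46.6% of all varying genes. Their median was 0.14 log2.

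Peroxisomal beta-oxidation, whose acyl-CoA oxidases pass electrons to oxygen and not to ETF, gave 0 calls among 13 genes. Its 8 varying genes had a median of 0.21 log2, with 7 positive, and Amacr (0.40 ± 0.09, limma adjusted p = 0.0984) and Crot (0.33 ± 0.15, limma adjusted p = 0.310) had the largest differences. Of the highest signals of that list, Scp2 differed by 0.11 ± 0.06 and Hsd17b4 was nearly constant. In the tricarboxylic acid cycle, which burns the acetyl-CoA, 1 of 15 rose, Idh3a (0.34 ± 0.05, limma adjusted p = 0.0451), with all 12 varying genes positive (median 0.21 log2). The share called higher over all genes was 0.863%, and 46.6% of all varying genes were positive. With varying genes fitted alone, 6 of these 12 were called higher (Idh3a, Cs, Fh1, Mdh2, Idh3g and Idh3b), against 5 of 9 members. That fit called 1 of 8 varying peroxisomal genes (Amacr) and 1 of 6 in the carnitine shuttle list (Slc25a20). It called 0 of 6 regulators and 0 of 2 other dehydrogenases, where 9.78% of all varying genes were called higher. Cs, Mdh2 and Sdhb differed by 0.30 ± 0.06, 0.21 ± 0.05 and 0.22 ± 0.07. The members' own median over 9 varying genes, 0.23 log2, was near those of both lists, while the median of all varying genes was -0.026 log2. The lists were chosen with earlier results of these data known and were not tested against each other.

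**Figure D4:**
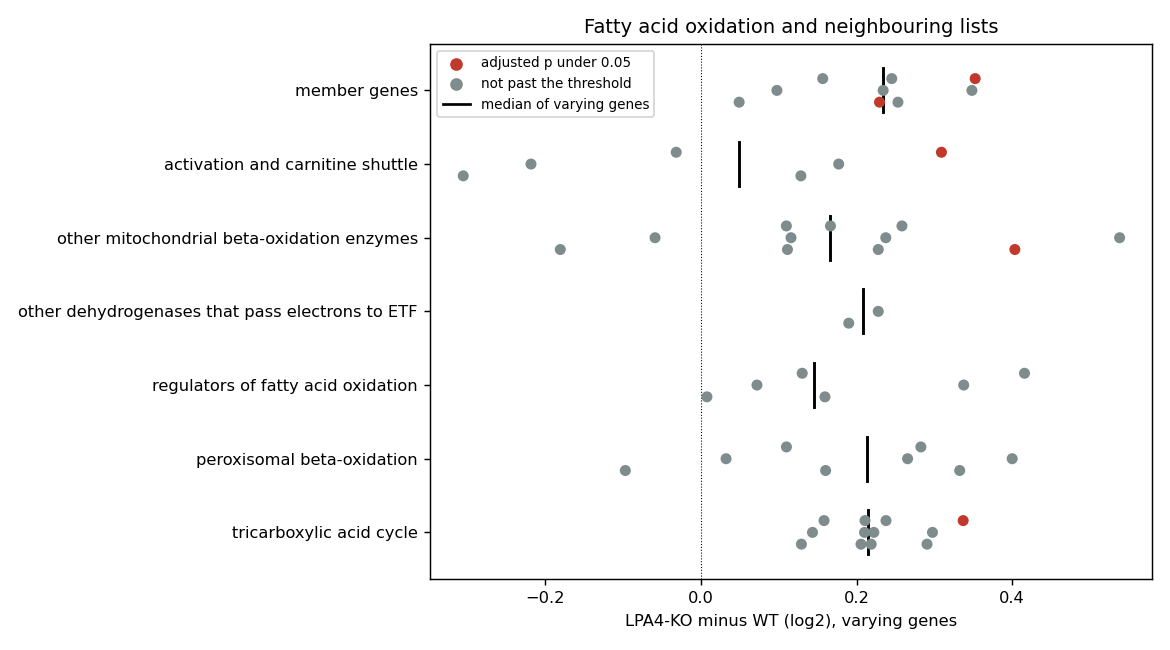
Difference between LPA4-KO and WT (log2) of each varying gene in the member list and in 6 neighbouring lists, with the median as a vertical line. Red marks an adjusted p under 0.05 over all genes. Member genes lie between 0.05 and 0.35.

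Markers of the labelled tissue and of other cell types were read in the same fit, and 1 of all of them, Dpt, was called. With varying genes fitted alone, 3 of 8 varying progenitor and fibroblast markers were called lower, against 11.5% of varying genes. That fit also called 3 of 9 mesothelial and 2 of 9 varying macrophage markers lower, and 0 markers of any list higher. Of the adipocyte markers, Adipoq and Fabp4 were nearly constant at 13.83 and 13.40 in both groups, none of 7 was called, and the log2 of the summed level ran from 15.55 to 15.64 in LPA4-KO and from 15.51 to 15.55 in WT mice. Retn differed by 0.18 ± 0.06 and Lep by -0.32 ± 0.36. The 5 measured markers of epididymal epithelium were all nearly constant.

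All 8 varying progenitor and fibroblast markers had negative estimates, several of them within their error, and the log2 of the summed level over 9 markers ran from 13.81 to 14.11 in LPA4-KO and from 14.17 to 14.37 in WT mice, without overlap. In that list 1 fell, Dpt (-0.43 ± 0.04), against 0.451% of genes called lower. Pdgfra, Dcn and Col3a1 differed by -0.66 ± 0.16, -0.25 ± 0.09 and -0.23 ± 0.22. The 9 varying macrophage markers (of 10) were negative too, with sums from 13.46 to 13.64 in LPA4-KO and from 13.61 to 13.95 in WT mice, among them Lyz2 (-0.42 ± 0.09), Itgam (-0.40 ± 0.14) and Csf1r (-0.21 ± 0.11). So were all 9 mesothelial markers, with sums from 10.93 to 11.44 in LPA4-KO and from 11.35 to 12.23 in WT mice. Among them were Gpm6a (-1.06 ± 0.29), Msln (-0.65 ± 0.27) and Upk3b (-0.62 ± 0.22). Some macrophage and mesothelial estimates lay within their error, and 2153 of all 4029 varying genes were negative.

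Of 8 endothelial markers 5 varied and 4 of these were negative, with sums from 11.76 to 11.91 in LPA4-KO and from 11.88 to 12.10 in WT mice. Cldn5 and Pecam1 differed by -0.61 ± 0.33 and -0.32 ± 0.19, and Cdh5 was nearly constant. Brown and beige adipocytes and muscle are rich in beta-oxidation. Brown and beige markers had sums from 9.44 to 9.78 in LPA4-KO and from 9.34 to 9.43 in WT mice, through Cox8b (0.41 ± 0.17) and Cidea (0.28 ± 0.21). These sums did not overlap, but the mean level of the 8 markers did, with 3 LPA4-KO arrays above all WT arrays. The other 6 of that list, Ucp1 and Dio2 among them, were nearly constant, and none of the 8 was called. Of the muscle markers 2 of 8 varied, Acta1 (-0.72 ± 0.42) and Myl1 (0.09 ± 0.17), with sums from 10.14 to 11.24 in LPA4-KO and from 10.75 to 11.40 in WT mice. The part of these markers in the members' differences was not tested.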

How the data were processed

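The authors deposited a single value for each probe set in each array, read here as log2 from the range of 5.27 to 14.07. Per the submitters' processing notes R 2.14.0 was used; how background, normalization and probe summary were handled, and the logarithm base, is not given in the sources used here. Of 45101 probe sets, 34945 had 1 gene symbol, 932 several, 9160 none listed and 64 were controls. Only the first were fitted, with limma 3.58.1 in R 4.3.3 (lmFit, eBayes with trend, no filter or block), once over probe sets and once over genes by their highest-mean probe set. Exact permutation tests were two-sided over the 70 arrangements of arrays (scipy 1.17.1). The named genes were all member probe sets and, of other lists, called genes, the 2 largest differences and the 2 highest signals; Eci1, Ucp1, Fh1, Idh3g and Idh3b were named after their values were seen. The fits were tested on simulated data. The members, lists, motifs and the 0.1 log2 limit were chosen with earlier results of these data known. Replicates are biological replicates per the labels. Same-numbered arrays correlated at 0.088, 0.083, 0.273 and -0.202 in their deviations, so the numbers were not taken as pairs. Alternatives comprised other scalings, filters, priors, weights, a block, thresholds and each array left out.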

Additional observations from a re-analysis of the deposited data

Results flagged for a closer look

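Among 38 groups of 4 values (12 member probe sets and 7 pairs, each in both genotypes), 2 held an array whose gap to its neighbour took up more of the group's range than Dixon's 95% critical value, where chance flags about 1 in 20. Acadl at 1448987_at had LPA4-KO replicate 4 at 11.73, above the others at 11.57 to 11.59, with a gap of 0.861 of the range. Hadhb at 1426522_at had WT replicate 4 at 11.16, below the others at 11.24 to 11.25, with a gap of 0.915 of the range.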

How the results depend on the processing

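The count of member probe sets called higher, 2 in the fit as reported, was 9 after quantile normalization and 11 after median centring, 3 and 4 of them nearly constant ones. Those scalings called 20753 (59.4%) and 27044 (77.4%) of all named probe sets higher and 1174 and 1334 lower, against 214 (0.612%) higher and 112 lower as reported. It was 5 with varying probe sets alone under any scaling, where 8.35% to 11.9% of them were called higher. It was 1 (Etfdh) with robust eBayes, against 0.512% of all named probe sets. With the replicate number as a block it was 0, where 0 of all probe sets were called higher and 3 lower. Replicates 2 and 3 correlated best with their own number and replicates 1 and 4 did not. Member genes called, 2 as reported, were 7 after centring, 5 with varying genes alone, 6 with those centred or quantile normalized, 4 at an adjusted p under 0.1 and 0 with the replicate block. Genes called higher over the 3 neighbouring lists of mitochondrial oxidation, 2 as reported, were 15 after centring (with 1 lower), 4 with varying genes alone under any scaling, 4 at an adjusted p under 0.1 and 0 with the block. The share of all genes called higher was 0.863% as reported and 9.78% with varying genes alone. For the other gene settings no such share is given here, so those gene counts cannot be set against it. With 1 array left out each of the 3 counts ran from 0 to 1, and the count over all probe sets also fell. The cause of these shifts was not tested. No member was called lower in any of these settings. Hadh at 1460184_at turned to 0.0017 after quantile normalization, 0.0060 after centring, 0.027 and 0.0040 with varying probe sets centred or quantile normalized, and ran from -0.088 to 0.047 with 1 array left out. At 1455972_x_at it ran from -0.025 to 0.087, and Acadvl minus Acadl from -0.031 to 0.039. Of the 12 member probe sets spanning over 0.05 log2, the other 10 kept their direction in all settings run, which for Etfa leave out the fits of varying probe sets alone.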
